A study of Mus musculus with 16 samples.

Results

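The circadian clock genes are a set of 10 genes chosen by name: the activators *Arntl* (also known as *Bmal1*), *Clock* and *Npas2*, the repressors *Per1*, *Per2*, *Per3* and *Cry1*, the nuclear receptors *Nr1d1* and *Nr1d2*, and the output gene *Dbp*. They are 10 of the 23299 genes in the deposited table, and all 10 were among the 19042 genes that passed the filter on low values (RPKM of 1 or more in 2 or more libraries).

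The molecular clock is a feedback loop that runs in nearly every tissue, the gut included. The proteins encoded by *Arntl* and *Clock*, or by *Arntl* and *Npas2*, bind E-boxes in DNA and switch on the *Per* and *Cry* genes, whose products then hold the activators back. They also switch on *Nr1d1*, *Nr1d2* and *Dbp*, and the nuclear receptors encoded by *Nr1d1* and *Nr1d2* (REV-ERB alpha and beta) repress *Arntl* and *Npas2*. Over a day the activators and their targets therefore peak at different hours, and the level of a clock gene depends on when the tissue was taken. In the intestine, feeding times are known to set the phase of this loop.

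RNA-seq was performed on whole terminal ileum from C57BL/6 mice of both sexes. Wild-type *Tas1r3*+/+ mice (WT) were compared with littermates that lack the sweet and umami taste receptor subunit TAS1R3 in every cell (*Tas1r3*-/-, KO, backcrossed to C57BL/6). The mice were 5–6 weeks old at the start. For 10 weeks they received, without limit, either a normal diet with plain water (ND) or a Western diet (WD) of 60% high-fat pellets with 30% sugar solution to drink. The groups are called WT-ND, KO-ND, WT-WD and KO-WD, and a library is named by its group, sex and number (WT-ND M1 is the first male). The hour of tissue collection, the order of collection and the light cycle are not given in the sources used here, so a difference in the hour of collection between groups cannot be told apart from an effect of diet or genotype.

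Of 16 deposited columns, 13 libraries were used: 4 WT-ND, 2 KO-ND, 4 WT-WD and 3 KO-WD. The 2 female KO-ND columns were not used, since each equals a weighted mean of both male KO-ND columns at all 32 clock gene transcripts and at all but 17 and 18 of 59258 transcripts. The 2 female KO-WD columns were averaged into 1 library, since the values of F2 were rarely whole reads whereas 2 times F2 minus F1 gave whole reads for 90.6% of low values. The values of F2 thus hold those of F1 in part, and the mean is not one of 2 independent libraries. With both female KO-ND columns left out, KO-ND held males only. The values imply 7001640 to 12378880 reads per library (median 9216352). Without the averaged female KO-WD library, *Arntl* had 24 to 231 reads per library (median 132) and *Nr1d1* 820 to 2858 (median 1138). The lowest count was 40 reads for *Npas2* and 60 for *Dbp*, so the lowest levels of these genes rest on few reads. *Tas1r3* was between 1.54 and 2.16 scaled RPKM in WT-ND, between 4.50 and 6.67 in WT-WD and at most 0.00529 in the 5 KO libraries, as the genotype labels state. The ileal enterocyte markers *Fabp6* and *Slc10a2* summed to 756 to 8983 scaled RPKM, and no cell type marker on 11 lists was at 0 in every library. In whole tissue, fewer cells of a type and less RNA per cell cannot be told apart.

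Promoter sequences show the DNA letters through which the loop acts. RefSeq windows (GRCm38.p6, 250 bases before to 50 after a start) were found for 9 of the 10 genes and were searched on both strands for the E-box CACGTG, its variant CACGTT, the D-box TTATGTAA bound by DBP and its relatives, and TAGGTCA, the core of the element that REV-ERB proteins bind. No 2 matches overlapped. Some genes had more than 1 window, and a match in any of them was taken, whereas the shares are over windows. The E-box was in windows of *Per1* and *Cry1* (7.15% of all 32851 windows held it) and CACGTT in those of *Cry1* and *Nr1d1* (4.68%). The D-box was in the window of *Per3* (0.938%) and TAGGTCA in a window of *Arntl* (2.61%). None of the 4 was in the windows of *Clock*, *Npas2*, *Nr1d2* or *Dbp*, or in another window of *Per1* and of *Arntl*. A match is a description of the letters, not evidence of a bound site. The windows of 4 of the clock genes are printed with that of *Ciart*, a gene outside the set whose level is described further on, with the matches in capitals. They lie at chr7:113207261-113207560 (plus strand, *Arntl*), chr11:69098699-69098998 (plus strand, *Per1*), chr4:151044616-151044915 (minus strand, *Per3*), chr10:85185005-85185304 (minus strand, *Cry1*) and chr3:95882179-95882478 (minus strand, *Ciart*), and each is written 5′ to 3′ along its gene.
Arntl: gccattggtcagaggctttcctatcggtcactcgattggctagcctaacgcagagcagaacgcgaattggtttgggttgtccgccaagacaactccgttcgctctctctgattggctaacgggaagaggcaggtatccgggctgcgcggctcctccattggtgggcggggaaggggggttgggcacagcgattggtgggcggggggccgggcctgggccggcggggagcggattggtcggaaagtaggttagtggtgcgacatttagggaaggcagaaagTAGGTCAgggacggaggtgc
Per1: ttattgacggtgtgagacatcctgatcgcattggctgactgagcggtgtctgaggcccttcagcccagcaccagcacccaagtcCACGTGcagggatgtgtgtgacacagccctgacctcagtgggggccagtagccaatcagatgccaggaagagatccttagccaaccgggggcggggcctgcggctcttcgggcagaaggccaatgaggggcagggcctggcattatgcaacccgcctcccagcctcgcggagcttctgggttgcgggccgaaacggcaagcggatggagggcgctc
Per3: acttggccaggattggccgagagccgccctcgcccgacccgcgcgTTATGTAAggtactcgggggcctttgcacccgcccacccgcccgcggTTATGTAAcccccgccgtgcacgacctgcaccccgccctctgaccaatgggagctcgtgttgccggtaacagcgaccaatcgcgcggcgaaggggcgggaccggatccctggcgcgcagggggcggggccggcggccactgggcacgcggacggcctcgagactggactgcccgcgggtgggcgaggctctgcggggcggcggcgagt
Cry1: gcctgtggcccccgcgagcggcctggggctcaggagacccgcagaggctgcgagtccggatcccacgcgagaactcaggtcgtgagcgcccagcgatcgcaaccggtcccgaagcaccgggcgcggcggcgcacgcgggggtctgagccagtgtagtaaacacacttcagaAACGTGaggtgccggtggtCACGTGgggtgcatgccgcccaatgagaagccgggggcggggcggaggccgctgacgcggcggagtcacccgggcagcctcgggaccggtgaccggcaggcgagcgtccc
Ciart: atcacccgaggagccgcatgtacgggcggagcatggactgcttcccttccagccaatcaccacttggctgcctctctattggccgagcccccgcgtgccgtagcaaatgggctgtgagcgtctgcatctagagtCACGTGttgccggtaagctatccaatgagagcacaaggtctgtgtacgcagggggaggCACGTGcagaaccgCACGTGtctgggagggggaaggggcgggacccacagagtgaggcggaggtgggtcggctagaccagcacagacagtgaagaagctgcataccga
*Per3* held 2 D-boxes, at bases -205 to -198 and -158 to -151 counted from the start (base 0). *Ciart* held 3 E-boxes, at -116 to -111, -58 to -53 and -44 to -39. In *Arntl* the match began 30 bases after the start.

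Levels are scaled RPKM, that is, RPKM summed over the transcripts of a gene and divided by a library factor, and RPKM is per length, so levels of different genes can be set side by side. Over the 13 libraries, *Nr1d1* had the highest median (46.0), followed by *Dbp* (41.7), *Nr1d2* (14.8), *Per1* (9.67), *Per3* (6.56), *Cry1* (5.25), *Per2* (5.21), *Clock* (5.15), *Arntl* (4.12) and *Npas2* (4.07). Of neighbours in this order, *Dbp* and *Nr1d2* differed by 1.08 on the log2 scale, more than the spread of that difference (SD 0.94, n = 13), and *Dbp* was the higher in 11 of 13 libraries. The other 8 pairs of neighbours differed by less than 1 SD. The genes differed in how far they ranged between libraries. The highest *Dbp* level was 16.8 times the lowest, that of *Arntl* 10.6 times and that of *Npas2* 10.3 times, compared with 2.09 times for *Clock* and 2.24 times for *Nr1d1*.

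**Figure D1:**
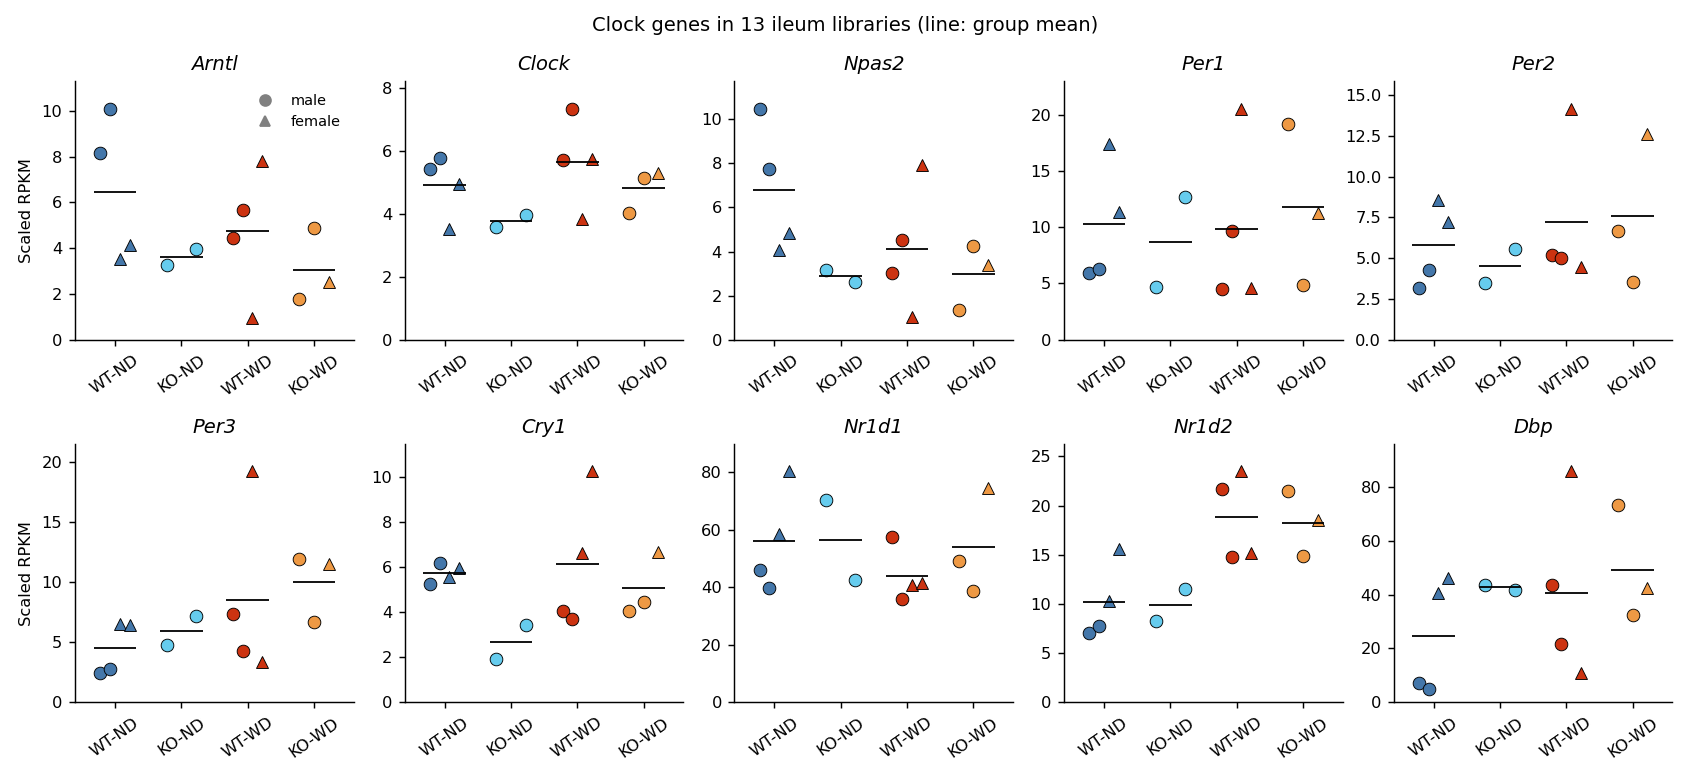
Scaled RPKM (vertical axes, linear, from 0) of the 10 clock genes in WT-ND, KO-ND, WT-WD and KO-WD, with 1 point per library (circles male, triangles female) and a line at the group mean. *Nr1d2* lies higher on WD in both genotypes, *Cry1* is lowest in KO-ND, and for *Arntl*, *Npas2*, *Per1*, *Per3* and *Dbp* libraries of 1 group lie as far apart as the groups do.

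Among the activators, *Arntl* encodes the partner shared by CLOCK and NPAS2. It was 8.14, 10.1, 3.54 and 4.12 scaled RPKM in WT-ND (M1, M2, F1 and F2), 3.25 and 3.95 in KO-ND (M1 and M2), 4.46, 5.68, 0.951 and 7.83 in WT-WD and 1.76, 4.87 and 2.51 in KO-WD (M1, M2 and F). The WT-ND males were the highest and WT-WD F1 the lowest, and the 4 groups overlapped. *Npas2*, which encodes a relative of CLOCK, was 10.5, 7.73, 4.07 and 4.84 in WT-ND, 3.18 and 2.61 in KO-ND, 3.04, 4.53, 1.01 and 7.92 in WT-WD and 1.33, 4.26 and 3.40 in KO-WD. Both KO-ND libraries lay below all WT-ND libraries for *Npas2* (log2 change -1.02, SE 0.59, limma adjusted p = 0.891). *Clock* varied less, between 3.51 and 7.34, with a mean of 4.92 ± 0.992 in WT-ND (SD, n = 4) and 5.65 ± 1.44 in WT-WD (SD, n = 4).

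Among the repressors, *Per3*, whose product is not needed for rhythms in most tissues, was 2.41, 2.76, 6.56 and 6.47 in WT-ND, 4.74 and 7.21 in KO-ND, 7.33, 4.27, 19.2 and 3.35 in WT-WD and 11.95, 6.66 and 11.5 in KO-WD. It was highest in WT-WD F1, the library with the lowest *Arntl*, and lowest in WT-ND M1. *Per1*, which also responds to glucocorticoids and cyclic AMP, ranged from 4.52 (WT-WD M1) to 20.5 (WT-WD F1), both within 1 group. *Per2*, a core repressor of the loop, was 3.20, 4.28, 8.58 and 7.23 in WT-ND, 3.45 and 5.59 in KO-ND, 5.21, 4.99, 14.2 and 4.44 in WT-WD and 6.67, 3.51 and 12.7 in KO-WD. The 2 highest values came from female WD libraries, and the groups overlapped.

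Among the further targets, *Dbp*, which encodes a D-box-binding transcription factor, was 7.32, 5.11, 40.4 and 46 in WT-ND, 43.6 and 41.7 in KO-ND, 43.7, 21.7, 85.7 and 10.9 in WT-WD and 73.3, 32.3 and 42.3 in KO-WD. The WT-ND males and WT-WD F2 were the lowest, and the WT-ND females lay with the KO-ND males. *Nr1d1* ranged from 35.8 (WT-WD M2) to 80.2 (WT-ND F2), with a mean of 56.1 ± 17.8 in WT-ND (SD, n = 4) and 43.9 ± 9.46 in WT-WD (SD, n = 4). Exons of *Thra* on the opposite strand share 263 bases with *Nr1d1*, and exons of *Sphk2* share 539 bases with *Dbp*. Whether counting used the strand is not given in the sources used here, so reads in those bases cannot be told apart.

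*Nr1d2* was the clock gene with the most of its variance between groups (65.8%, compared with 28% for the median tested gene). It was 7.10, 7.77, 10.3 and 15.6 in WT-ND, 8.26 and 11.6 in KO-ND, 21.7, 14.8, 23.5 and 15.2 in WT-WD and 21.5, 14.8 and 18.6 in KO-WD. In KO mice all 3 WD libraries were above both ND libraries, and in WT mice only WT-ND F2 reached into the range on WD. The log2 change on WD was 0.89 in WT (SE 0.26, limma unadjusted p = 0.0043, adjusted p = 0.146) and 0.85 in KO (SE 0.33, unadjusted p = 0.0229, adjusted p = 0.846), neither past the threshold. The two-sided exact permutation p was 0.0857 in WT, where 0.0286 is the smallest possible, and 0.1 in KO, where 0.1 is the smallest. In KO the unadjusted limma p was 0.156 without KO-ND M1 and 0.0575 without KO-WD M1. Between genotypes *Nr1d2* differed by 0.01 on ND (SE 0.31) and by -0.03 on WD (SE 0.28).

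*Cry1*, the strongest repressor of the activators, was 5.25, 6.17, 5.57 and 5.97 in WT-ND, 1.90 and 3.44 in KO-ND, 4.06, 3.69, 6.62 and 10.2 in WT-WD and 4.07, 4.45 and 6.66 in KO-WD. Both KO-ND libraries lay below every other library. The log2 difference of KO-ND from WT-ND was -1.02 (SE 0.36, limma unadjusted p = 0.0144, adjusted p = 0.891), and the exact permutation p of 0.0667 is the smallest that 2 against 4 libraries allow. Without KO-ND M1 it was -0.65 (unadjusted p = 0.18). The 2 KO-ND libraries also had low enterocyte marker sums, at 2969 and 1852 scaled RPKM compared with 4996 to 7311 in WT-ND. The sum was 947 and 2274 in KO-WD M1 and M2, where *Cry1* was 4.07 and 4.45. The ileal enterocyte sum was 1377 and 4734 in KO-ND, compared with 2904 to 5056 in WT-ND. The part of those cells in the difference was not tested.

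To examine whether diet or genotype changed the clock genes, each was tested in 1 limma model over all genes, and called past a 2-fold change with an adjusted p below 0.01. None of the 10 was called in any comparison. For WD against ND in WT mice, 0.00525% of all tested genes were called, and 1 clock gene, *Nr1d2*, had an unadjusted p under 0.05, as did 15.6% of all genes. For WD against ND in KO mice, 0% of all genes were called, and *Nr1d2* and *Cry1* had an unadjusted p under 0.05 (5.65% of all genes). *Cry1* was higher in KO-WD than in KO-ND by 0.82 (SE 0.38, unadjusted p = 0.0486, adjusted p = 0.879), and its unadjusted p was above 0.05 in 8 of the 13 fits that left out 1 library. For KO against WT mice on ND, 0% of all genes were called, and *Cry1* alone had an unadjusted p under 0.05 (4.83% of all genes). For KO against WT mice on WD, 0.0105% of all genes were called, and 0 clock genes had an unadjusted p under 0.05 (2.62% of all genes). The interaction of genotype and diet called 0% of all genes, and again 0 clock genes had an unadjusted p under 0.05 (1.43% of all genes).

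Counting groups that do not overlap gave the same picture. No clock gene separated WT-WD from WT-ND (10.6% of all genes did) or KO-WD from WT-WD (2.88%). *Clock*, *Cry1* and *Nr1d2* separated KO-WD from KO-ND (20.9% of all genes), and *Npas2* and *Cry1* separated KO-ND from WT-ND (22.4%). The median log2 change of the 10 genes was 0.08 for WD in WT (0.03 over all genes), 0.34 for WD in KO (-0.01), -0.26 for KO on ND (0.02) and 0.02 for KO on WD (-0.04). Standard errors were wide for the genes that vary most, at 0.73 for *Dbp* and 0.50 for *Arntl* in the WT diet comparison. These p-values measure the spread between single mice collected at hours that are not given.

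**Figure D2:**
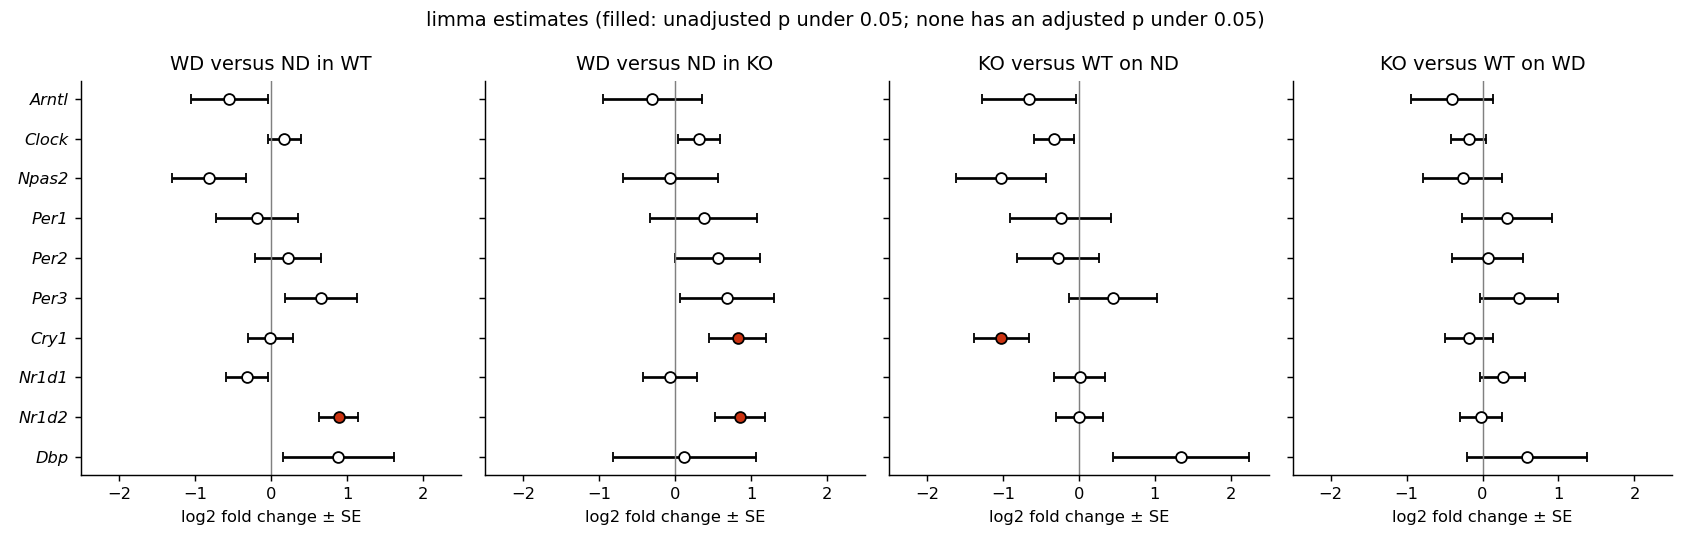
Log2 fold change with its standard error (horizontal axes) of the 10 clock genes in the 4 limma comparisons. Filled points, *Nr1d2* and *Cry1*, have an unadjusted p under 0.05, and no gene in any panel has an adjusted p under 0.05.

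Sex was not balanced, since KO-ND held males only. Within groups, *Per2* was higher in females by 0.92 on the log2 scale (SE 0.28, limma unadjusted p = 0.0071, adjusted p = 0.111) and *Cry1* by 0.53 (SE 0.21, unadjusted p = 0.0273, adjusted p = 0.194). Neither was called, as 0.042% of all genes were, and 19.7% of all genes had an unadjusted p under 0.05. In WT-ND, with 2 libraries of each sex, the sexes did not overlap for 9 of the 10 genes, as for 41.6% of all genes: both males had more *Arntl*, *Clock* and *Npas2* and less *Per1*, *Per2*, *Per3*, *Nr1d1*, *Nr1d2* and *Dbp* than both females. *Dbp* was 5.11 to 7.32 in these males and 40.4 to 46 in these females. On WD the WT sexes did not repeat this, since WT-WD F1 (85.7) and F2 (10.9) held the extremes of *Dbp*. Among males alone on ND, 5 of the 10 genes had an unadjusted p under 0.05, compared with 9.23% of all genes, and none was called. *Dbp* was higher in KO-ND than in WT-ND males by 2.71 (SE 0.44, 2 libraries against 2, limma unadjusted p = 0.000362, adjusted p = 0.445), compared with 1.34 (SE 0.89, unadjusted p = 0.157) when the WT-ND females were included. The difference in *Cry1* was -1.003 in males alone and -1.02 with the females. With sex as a covariate the *Cry1* difference was -0.75 (limma unadjusted p = 0.0343). With the replicate number as a term it was -0.76 (limma unadjusted p = 0.0429).

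For 9 of the 10 genes, *Nr1d2* being the exception, more of the variance lay within groups than between them. The same held for the median tested gene, with 28% of its variance between groups. The within-group SD of *Dbp* was 1.201 on the log2 scale, above that of 98.4% of tested genes, that of *Per1* was 0.89 (94.2%) and that of *Arntl* 0.81 (91.2%), against a median of 0.40. *Clock* (0.28), *Nr1d2* (0.38) and *Nr1d1* (0.41) lay near or below that median. Differences between groups held 3.53% of the variance of *Per1*, 9.90% of that of *Per2* and 22.1% of that of *Arntl*. For *Nr1d1* (14.75%) and *Dbp* (25.77%) the share was also below that of the median gene. It was above it for *Per3* (30.38%), *Clock* (31.75%), *Npas2* (33.06%) and *Cry1* (49.05%), as for *Nr1d2*.

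Activators and targets lay opposite each other across libraries. For each library the mean log2 level of *Arntl*, *Clock* and *Npas2* and that of *Per1*, *Per2*, *Per3*, *Nr1d1*, *Nr1d2* and *Dbp* were taken, each gene centred on its mean over the libraries. The activator mean minus the target mean was 1.72 in WT-ND M1, 1.70 in WT-ND M2, 1.27 in WT-WD F2, 0.63 in WT-WD M2 and 0.40 in KO-WD M2. It was -0.05 in KO-ND M1, -0.08 in WT-WD M1, -0.25 in WT-ND F2, -0.37 in KO-ND M2, -0.47 in WT-ND F1, -0.84 in KO-WD F, -1.51 in KO-WD M1 and -2.15 in WT-WD F1. WT-WD held both 1 of the 3 highest values and the lowest. The means had opposite signs in 10 of 13 libraries (Pearson r = -0.89, as a description). Libraries spanned 3.86 and group means 1.32, with means of 0.67 ± 1.196 in WT-ND (SD, n = 4), -0.21 ± 0.23 in KO-ND (SD, n = 2), -0.08 ± 1.48 in WT-WD (SD, n = 4) and -0.65 ± 0.97 in KO-WD (SD, n = 3). Groups accounted for 19.9% of the variance.

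**Figure D3:**
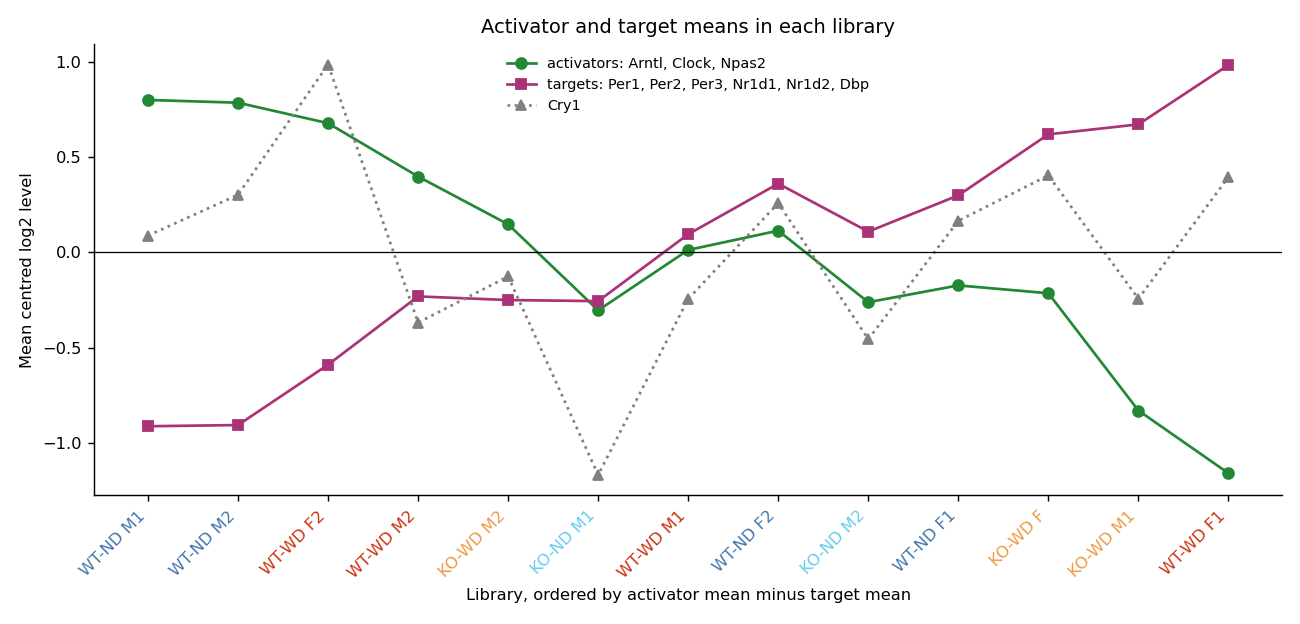
Mean centred log2 level (vertical axis) of the 3 activators and the 6 targets, with *Cry1* alone, in each of the 13 libraries. Libraries are ordered by the difference between both means, so the crossing of the lines follows in part from the order. The activators are highest in WT-ND M1 and M2 and lowest in KO-WD M1 and WT-WD F1, and label colours (groups) are mixed along the axis.

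Gene by gene, *Arntl* was related to 7 of the other 9 clock genes at a Benjamini-Hochberg adjusted permutation p under 0.05 (13 libraries, two-sided, 9 relations). *Npas2* rose with *Arntl* (r = 0.93, rho = 0.85, adjusted permutation p of r = 3e-05), as did *Clock* (r = 0.63, rho = 0.75, adjusted p = 0.027). *Per3* (r = -0.94, rho = -0.84), *Dbp* (r = -0.90, rho = -0.86), *Per2* (r = -0.74, rho = -0.70), *Per1* (r = -0.70, rho = -0.62) and *Nr1d2* (r = -0.63, rho = -0.56) fell as *Arntl* rose. Their adjusted permutation p of r were 3e-05, 3e-05, 0.0085, 0.012 and 0.027, and those of rho were 0.00186, 0.00186, 0.0176, 0.0429 and 0.0638. The unadjusted p of *Npas2*, *Per3* and *Dbp*, 1e-05, is the smallest that the 100000 resamples can give. *Nr1d1* (r = -0.27, rho = -0.45, adjusted p = 0.426) and *Cry1* (r = 0.15, rho = 0.07, adjusted p = 0.624) showed no relation that passed. Without the 2 libraries farthest from the median of *Arntl*, WT-WD F1 and WT-ND M2, r was 0.89 for *Npas2*, -0.89 for *Per3*, -0.90 for *Dbp*, -0.61 for *Per2*, -0.62 for *Per1*, 0.57 for *Clock* and -0.40 for *Nr1d2*, the weakest of the 7. Without WT-WD F1 alone, 3 of the 9 relations passed, those with *Npas2*, *Per3* and *Dbp*. The relation with *Nr1d2* also failed without WT-ND M1, WT-ND M2 or KO-WD M1, and that with *Clock* without WT-ND M2 or KO-WD M1.

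With each group centred on its own mean, r was 0.92 for *Npas2*, 0.82 for *Clock*, -0.94 for *Per3*, -0.88 for *Dbp*, -0.82 for *Per2*, -0.80 for *Per1* and -0.70 for *Nr1d2*, and the 7 passed again over 6912 within-group permutations, all that exist (adjusted exact p of 0.00521 to 0.014). Within the 6 ND libraries r was -0.98 for *Dbp* and -0.87 for *Per3*, and within the 7 WD libraries it was -0.92 and -0.98. For *Per1*, *Per2* and *Nr1d2* it was -0.45, -0.48 and -0.56 on ND, closer to 0 than the -0.87, -0.82 and -0.81 on WD. Over all pairs, 17 of 18 between an activator and a target were negative, the exception being *Clock* with *Nr1d2* (r = 0.05), and 18 of 18 after centring on groups. All 15 pairs of targets and all 3 pairs of activators were positive. Pairs share libraries and library factors and are given as a description.

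**Figure D4:**
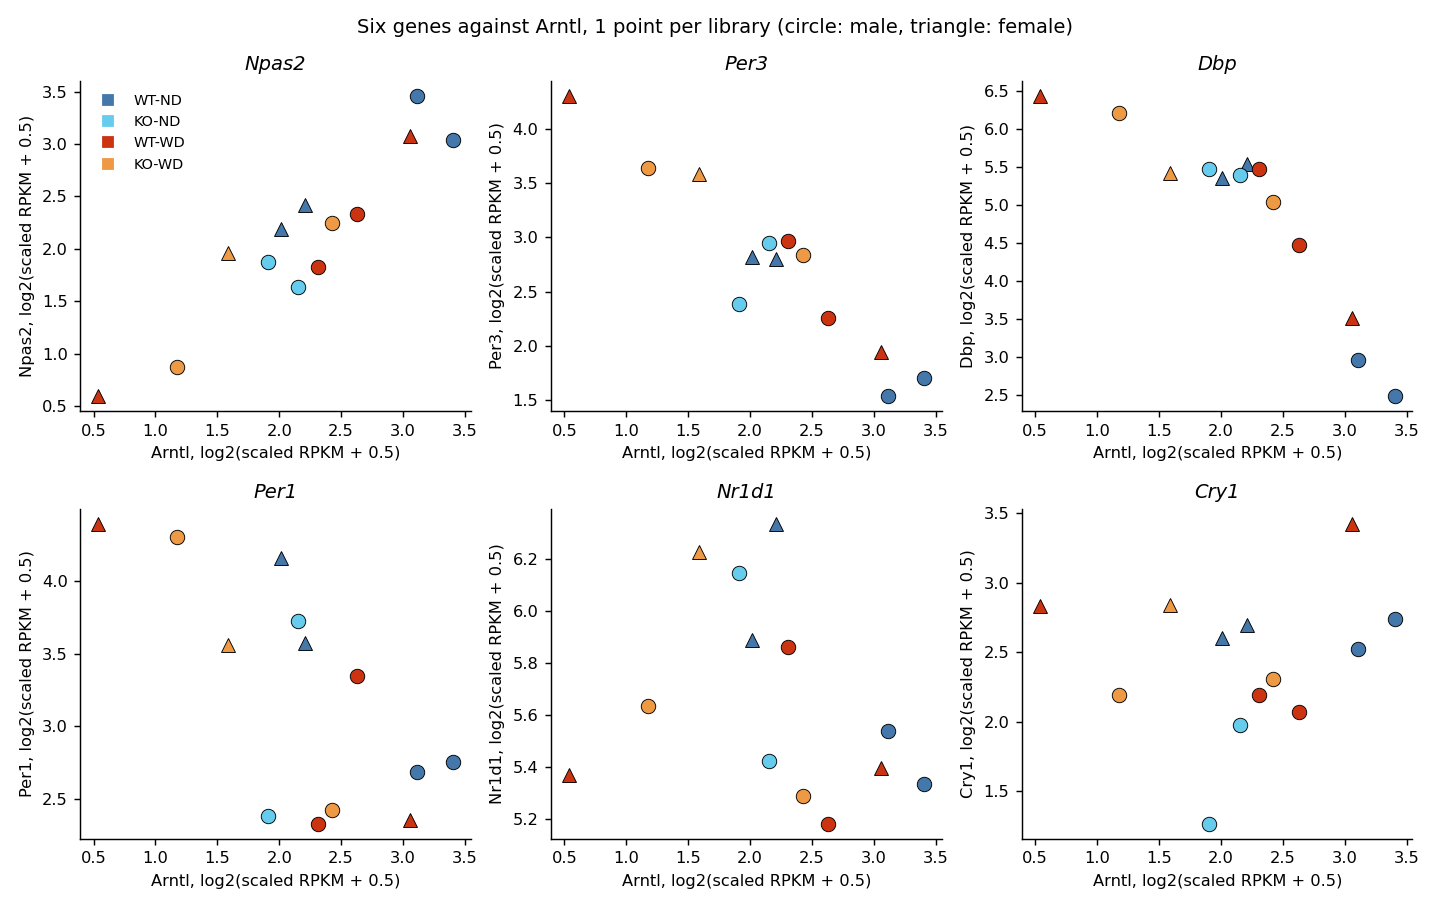
Log2(scaled RPKM + 0.5) of 6 clock genes (vertical axes) against that of *Arntl* (horizontal axes), with 1 point per library (circles male, triangles female, colours for groups). *Npas2* climbs with *Arntl*, *Per3*, *Dbp* and *Per1* descend, and *Nr1d1* and *Cry1* show no clear slope.

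Summed markers of some other cell types moved with this axis. The summed smooth muscle markers (*Myh11*, *Acta2*, *Actg2*, *Des* and *Tagln*, with none at 0) were 951 to 4938 scaled RPKM, at 1505, 1022 and 951 in WT-ND M1, WT-ND M2 and WT-WD F2 and at 4938 and 3853 in KO-WD M1 and WT-WD F1 (r = 0.68 with target mean minus activator mean, 13 libraries). The summed enteric neuron and glia markers, at 4.05 to 48.2 scaled RPKM, gave the same r of 0.68 and were also highest in WT-WD F1 and KO-WD M1, while r was -0.53 for the ileal enterocyte sum and -0.52 for the goblet cell sum. Over the remaining marker lists r ranged from -0.31 for the wider enterocyte sum to 0.47 for the T cell sum. The part of these cell types in the relations was not tested beyond a fit with the smooth muscle sum. With the smooth muscle sum as a covariate, a setting chosen after seeing the data, 5 of the 9 relations with *Arntl* passed: r was 0.85 for *Npas2*, -0.91 for *Per3*, -0.87 for *Per2*, -0.81 for *Dbp* and -0.70 for *Per1*. The relations with *Clock* and *Nr1d2*, which passed without the covariate, did not pass with it. Group ranges of the sum overlapped, at 1022 to 3174 in WT-ND, 1788 to 3538 in KO-ND, 951 to 3853 in WT-WD and 1251 to 4938 in KO-WD. The log2 change of *Nr1d2* on WD was 0.84 in WT and 0.85 in KO with the covariate, and that of *Cry1* in KO-ND was -0.85. With the *Arntl* level itself as a covariate, chosen in the same way, *Nr1d2* changed by 0.71 in WT and 0.76 in KO (limma adjusted p = 0.12 and 0.554).

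Among 19032 other tested genes, those most like the axis were sought by Pearson r with target mean minus activator mean over the 13 libraries. *Ciart*, which encodes a repressor of the activators, had the highest r of all (0.98). *Tef* (0.98) and *Hlf* (0.95), which encode the relatives of DBP that bind the same D-box, ranked 2 and 4. *Ciart* was 0.539, 0.429, 2.40 and 3.63 in WT-ND, 2.596 and 2.38 in KO-ND, 2.29, 1.34, 12.2 and 0.753 in WT-WD and 7.45, 1.96 and 4.22 in KO-WD. It was lowest in the 3 libraries with the most *Arntl* and highest in the 2 with the least. Its window above holds 3 E-boxes, each window of *Tef* holds 1, and that of *Hlf* holds none of the motifs searched. A link between these letters and the levels was not tested. *Tef* ranged from 10.4 to 60.9 and *Hlf* from 0.767 to 8.85, with the same 3 libraries lowest and the same 2 highest. *Mapk12* (0.96), *Ifit2* (0.93), *Tspan4* (0.92), *Sox12* (0.92) and *Purg* (0.91) completed the 8 highest. The 8 lowest were *Galnt7* (-0.94), *Fermt1* (-0.89), *Zfp7* (-0.88), *Mgat5* (-0.88), *Galnt4* (-0.87), *Cldn8* (-0.87), *Hic2* (-0.87) and *Nol4l* (-0.87). In all, 230 genes had r above 0.8 and 39 below -0.8, so these names are a description of likeness and not of control.

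**Figure D5:**
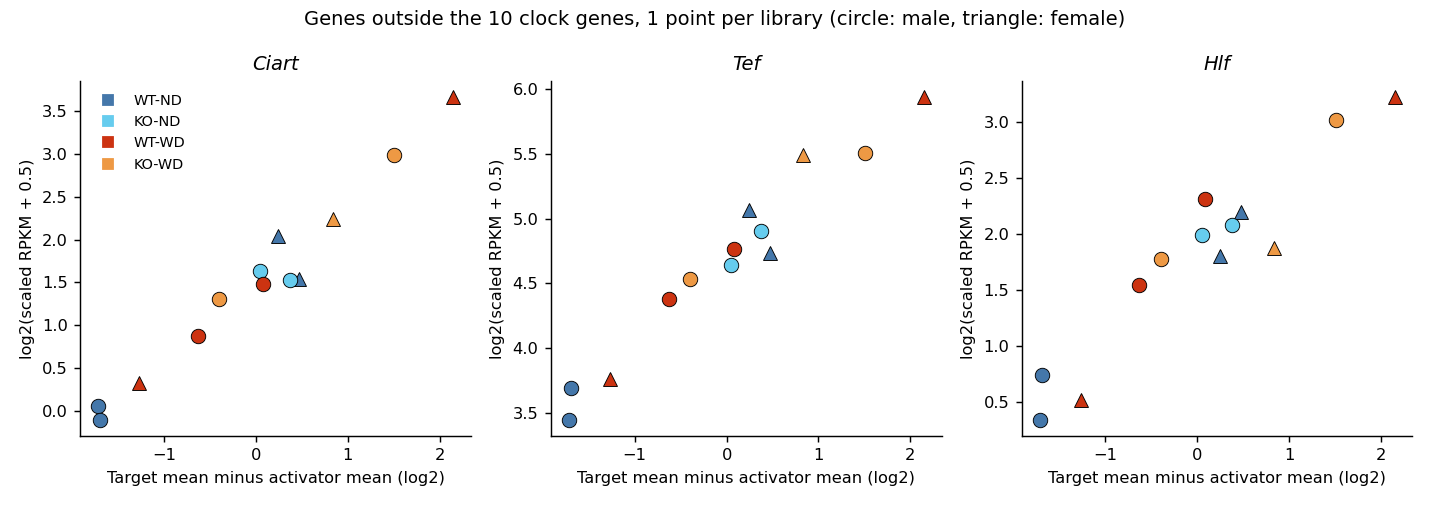
Log2(scaled RPKM + 0.5) of *Ciart*, *Tef* and *Hlf* (vertical axes), which are not among the 10 genes, against target mean minus activator mean (horizontal axes, log2), with 1 point per library. In each panel WT-ND M1, WT-ND M2 and WT-WD F2 sit at the lower left and WT-WD F1 and KO-WD M1 at the upper right.

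A wider list of 25 clock genes (*Ciart*, *Tef* and *Hlf* among them, with kinases and ubiquitin ligases that act on the loop) had 23 tested members, and *Arntl2* and *Rorb* were below the filter. None was called by limma in any comparison. In WT mice, 3 of 23 had an unadjusted p under 0.05 for diet, compared with 15.6% of all genes: *Bhlhe41*, a repressor at E-boxes (log2 change 0.88, SE 0.38, adjusted p = 0.292), *Sirt1*, a deacetylase (0.70, SE 0.23, adjusted p = 0.193), and *Csnk1d*, a kinase that marks PER proteins for destruction (-0.32, SE 0.13, adjusted p = 0.277). *Csnk1d* was 43.7 to 46.8 in WT-ND and 34.2 to 40.0 in WT-WD, with no overlap, as for 10.6% of all genes. *Bhlhe40* had an unadjusted p under 0.05 for genotype on WD (-0.60, SE 0.27, adjusted p = 1). None of the 23 did for diet in KO mice, for genotype on ND or for the interaction. The difference of females from males was 0.996 for *Usp2*, a deubiquitinase (SE 0.22, adjusted p = 0.0553), and 0.78 for *Fbxl21*, a ubiquitin ligase subunit (SE 0.26, adjusted p = 0.134), each with an unadjusted p under 0.05. The median change of the 23 genes for WD was 0.21 in WT and 0.24 in KO. On the axis, the r of the 23 genes ranged from -0.56 for *Prkaa1* to 0.98 for *Ciart*.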

How the data were processed

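The authors mapped reads of terminal ileum libraries (Ion Proton) with STAR in Partek, per the labels on mm10, and deposited RPKM values per transcript. Library totals differed between diets (column sums of 817011 to 819916 on ND and 542371 to 672933 on WD), so scaling can change a fold. Whole reads were recovered for 87.1 to 90.1% of low values of genes with 1 transcript (tolerance 0.05 reads) in the 13 columns used and for 7.28 to 11.0% in the 3 others.

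RPKM was summed per gene, by the transcript name without its last part, and divided by trimmed mean of log ratios factors (30% of ratios and 5% of levels trimmed). Log2(scaled RPKM + 0.5) was fitted with limma 3.58.1 in R 4.3.3, 4 group means and a trend, adjusted over 19042 genes. A fold change on this scale understates the change of low genes. The design named this test in place of the count test because values are RPKM. The procedure was tested on simulated data, and other scalings, pseudocounts, filters, covariates and library sets were tried. Permutation tests used Python 3.11.15 and scipy 1.17.1. Positions are from GENCODE M21 and RefSeq. The 10 genes and all lists were chosen with earlier results of these data known. Genes named are the 10, members of the wider and stress lists with an unadjusted p under 0.05, and the 8 highest and lowest by likeness. *Prkaa1*, as the end of a range, and genes on opposite strands were named after their values were seen. One gene of the wider list is not reported here.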

Additional observations from a re-analysis of the deposited data

Results flagged for a closer look

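In WT-WD, *Per2* in F1 stood apart from the other 3 libraries, at 14.2 scaled RPKM compared with 4.44 to 5.21. The gap to the nearest library took up 0.867 of the range of the group on the log2(scaled RPKM + 0.5) scale, above Dixon's limit for 4 samples. It was the only such value among 20 groups of 4 libraries examined, and chance marks about 1 in 20 groups. The same library had the lowest *Arntl* (0.951) and *Npas2* (1.01) of all 13 and the highest *Per1*, *Per3*, *Nr1d2* and *Dbp*. Without it, the difference of females from males in *Per2* was 0.74 on the log2 scale (limma unadjusted p = 0.0209), compared with 0.92 with it. The cause was not tested.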

How the results depend on the processing

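No clock gene was called in any of the comparisons that each alternative could fit: RLE, upper quartile or no scaling, other pseudocounts and filters, sex or the replicate number as a term, males only, 2 groups alone, all 16 columns, either female KO-WD column, each library left out, either covariate added after seeing the data, and a threshold of 0.05 alone. The difference of females from males had no fit with the replicate block, in males only, with 2 groups alone or with either covariate, and the interaction had none with 2 groups alone. The lowest adjusted p of all, 0.0464, was that of *Nr1d2* on WD in WT with all 16 columns. Without scaling, the median of all genes moved by -0.38 on WD in WT and -0.35 in KO, the change of *Nr1d2* on WD was 0.43 and 0.47, and *Clock*, *Per2* and *Dbp* each changed sign in at least 1 diet comparison. Relations with *Arntl* that passed numbered 4 of 9 without scaling, where *Nr1d1* turned to r = 0.10, and 3 to 7 with 1 library left out (3 without WT-WD F1). *Cry1* was -0.0427 to 0.385 with 1 library left out (-0.0427 without WT-WD F2) and turned to -0.324 with the smooth muscle covariate. *Cry1* on WD in KO had an unadjusted p above 0.05 in 8 of 13 leave-one-out fits (0.48 to 1.18) and 9 of 16 others. The count of all genes called on WD in WT was 1, and 539 without scaling, 33 with all 16 columns, 3 with the sex or block term and 0 in males. Whether replicate numbers pair the libraries was not settled. Of same-numbered pairs, 7 of 14 had r over 0.1, compared with 9 of 38 others, with median r of 0.11 and -0.03. Same-numbered libraries also share the sex, which these counts do not set apart. On WD in WT, 24.2% of all genes had an unadjusted limma p under 0.05 with the block and 15.6% without. With the replicate block, *Cry1* on WD in KO was 0.63, and 5 clock genes in place of 1 had an unadjusted p under 0.05 for KO on ND (9.29% of all genes with the block and 4.83% without), with adjusted p of at least 0.519. In males only these counts were 5 for KO on ND (9.23% of all genes) and 4 for WD in WT (17.6%), in place of 1 and 1.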

Other observations

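A list of 10 glucocorticoid-responsive and immediate early genes was read beside the clock because *Per1* also responds to glucocorticoids and cyclic AMP. None was called by limma in any comparison. For KO against WT on ND, 3 of 10 had an unadjusted p under 0.05, compared with 4.83% of all genes, and all 3 were lower in KO-ND: *Sgk1*, a kinase induced by glucocorticoids (log2 change -1.96, SE 0.74), *Fos* (-1.37, SE 0.61) and *Jun* (-1.04, SE 0.40), each with an adjusted p of 0.891. The median of the list was -0.36, against 0.02 over all genes, and all 10 were lower in KO-ND. On WD, 9 of the 10 were lower in KO, with a median of -0.20 against -0.04 over all genes. For WD in WT, *Ier2* was lower (-0.70, SE 0.19, adjusted p = 0.135) and the groups did not overlap, as for 10.6% of all genes. The difference of females from males was 0.92 for *Junb* (SE 0.26, adjusted p = 0.0908), 0.71 for *Tsc22d3* (SE 0.30) and 0.54 for *Jun* (SE 0.25), at limma unadjusted p of 0.00418, 0.0341 and 0.0477. With target mean minus activator mean, the r of the 10 genes ranged from -0.49 for *Ier2* to 0.65 for *Tsc22d3* over the 13 libraries, as a description. It was -0.48 for *Fos* and -0.20 for *Sgk1*, so the list did not move in 1 direction along this axis.

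The RPKM of *Arntl* came mainly from 2 transcripts of 5 (33.5 and 32.1%), that of *Per3* from 1 transcript of 5 (63.4%) and that of *Nr1d1* from 1 of 2 (81.8%). *Npas2* and *Per2* each had 1 transcript.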
